A study of Homo sapiens with 31 samples.

Results

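Neutrophil and monocyte differentiation genes were examined as a set of 41 genes, out of 19772 protein-coding genes with an annotated transcription start site (TSS). The set holds genes for granule proteins, β2 integrins, S100 proteins, the phagocyte oxidase, chemoattractant, pattern recognition and Fc receptors, and surface proteins of monocytes. The genes were listed by name, and each ChIP-seq peak was given to the gene with the nearest protein-coding TSS when its summit lay within 100 kb of it. The peak lists of 13 libraries were used out of 31 samples in the series. MUTZ3, labelled as acute myelomonocytic leukemia, and MOLM1, labelled as chronic myeloid leukemia in blast crisis, are cell lines in which a chromosome 3q26 rearrangement activates EVI1.

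Unmodified MUTZ3 cells gave 1 library of EVI1, crosslinked with disuccinimidyl glutarate (DSG) and formaldehyde, and 1 library of CTBP2 with a single crosslink. MUTZ3 cells with the inducible construct pCW-4xPLDLS, a peptide with repeats of the CTBP-binding motif of EVI1, gave 2 libraries each of CTBP2 and of EVI1, untreated and with doxycycline (dox), all at 72 h and all labelled as crosslinked with DSG. MUTZ3 cells with the retroviral construct p50MX-3xFLAG-3xNLS-4xPLASS-Zeo, in which the motif is mutated, gave 2 libraries of CTBP2. MOLM1 cells with a dox-inducible short hairpin RNA against EVI1 gave 1 library of CTBP2 without dox. The MOLM1 cells came from 1 clone, and the inducible MUTZ3 cells were a bulk population. All 4 groups of inducible cells carried the construct, so that untreated cells were their only control. The other samples of the series, among them retroviral 4xPLDLS cells and MOLM1 cells with dox, were not analysed here. Nothing in the labels says that libraries 1 and 2 of a group came from separate cultures, so p-values measure the spread between these libraries only.

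EVI1, encoded in the MECOM locus, is a zinc finger transcription factor that is active in blood stem cells and is silenced as myeloid cells mature. CTBP2 is a corepressor that does not read DNA sequence itself and is brought to chromatin by factors that carry a short PXDLS-like motif. In normal myelopoiesis, primary (azurophil) granule genes are switched on early, specific and gelatinase granule genes later, and receptors and integrins of mature phagocytes toward the end. The design asks whether CTBP2 at these genes depends on its contact with partners that carry this motif, EVI1 among them. The paper reports that the peptide also competed with ZEB2 for CTBP2 in an interaction assay, so dox does not single out EVI1. The peak lists show where the proteins were called, and hold no expression values, so that neither the cell type nor the amount of the peptide could be checked in them. The lists of the inducible cells held 62232 and 56526 CTBP2 peaks without dox, 24588 and 23878 with dox, and between 47599 and 72214 EVI1 peaks, and those of the other cells held 6688 to 64569.

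In untreated inducible cells, sites called in both libraries (2 overlapping peaks merged into 1 site) were found for CTBP2 at 30 of 41 genes (73.2%) and for EVI1 at 30 of 41 genes. Of all protein-coding genes, 67.2% had a CTBP2 site and 70% had an EVI1 site, so the share of the 41 genes lay close to the background. The 82 CTBP2 sites and the 76 EVI1 sites were spread over largely the same loci. Sites of both proteins were found at 28 genes, of CTBP2 only at 2 genes (CTSG and CTSS), of EVI1 only at 2 genes (ELANE and PRTN3), and of neither at 9 genes. Of all protein-coding genes these shares were 64%, 3.26%, 6.03% and 26.7%, against 68.3%, 4.88%, 4.88% and 22.0% of the set. These classes rest on calls in both untreated libraries. At the CTBP2 sites of CTSG and CTSS, EVI1 was called in untreated replicate 1 but not in replicate 2. With dox, EVI1 was called there in both libraries at CTSG and in replicate 2 at CTSS. ELANE and PRTN3 had CTBP2 peaks in untreated replicate 1 only. None of the 41 genes lacked a peak in all 13 lists (10.1% of all genes did), and 15 genes (36.6%, beside 15% of all genes) had a peak in each of them.

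**Figure D1:**
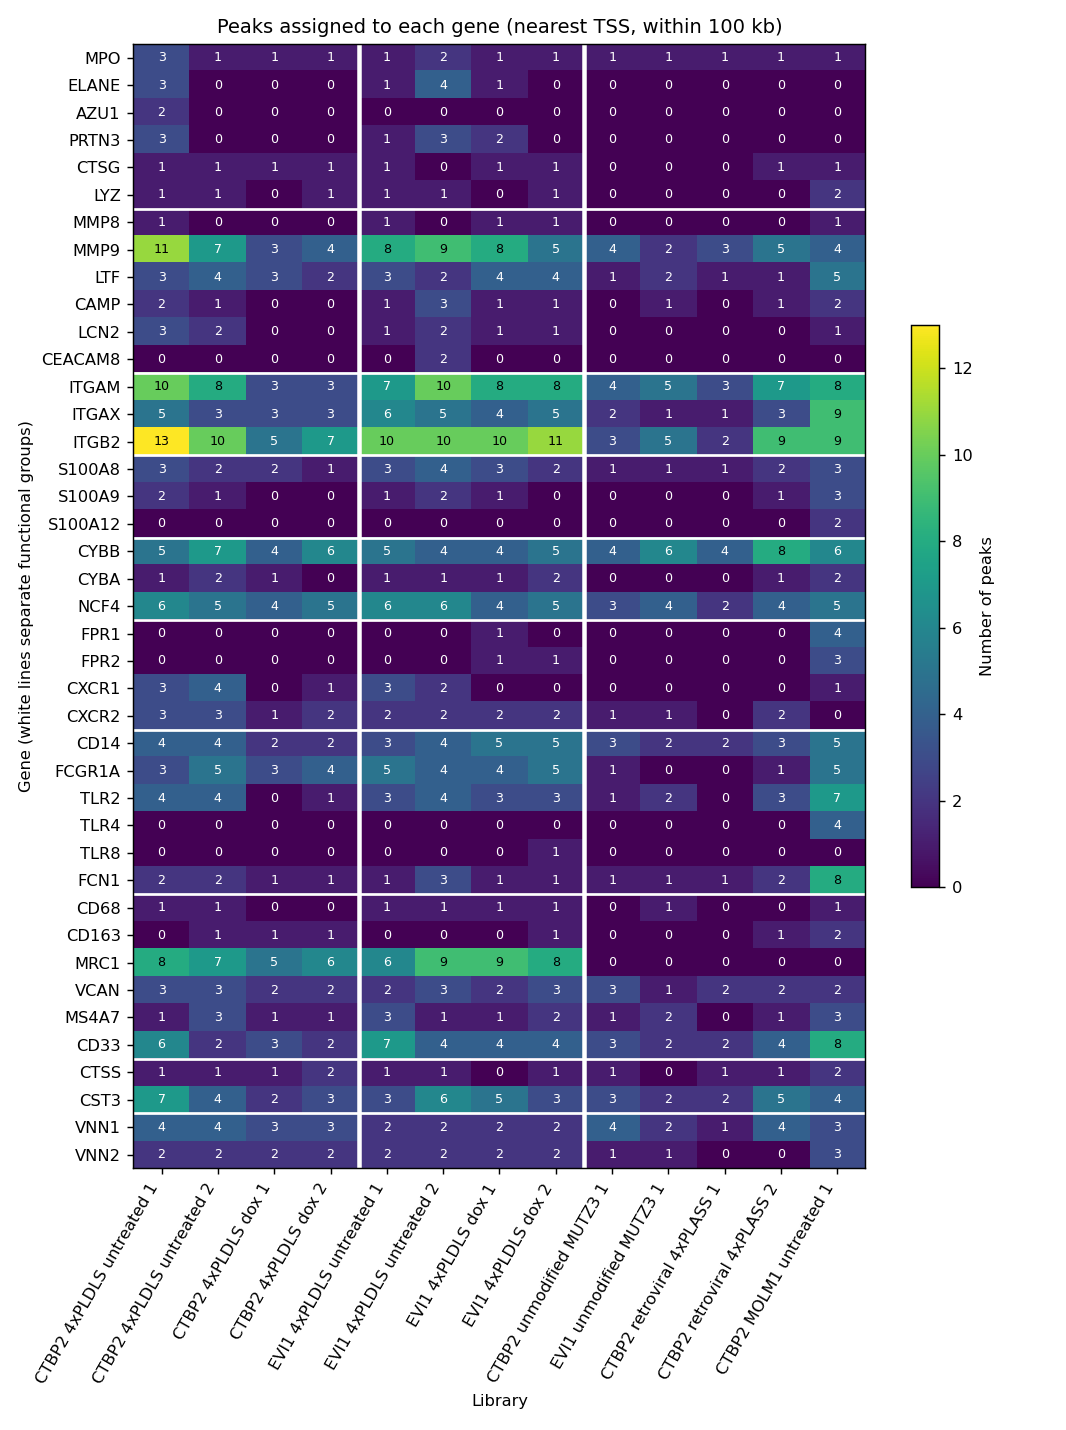
Number of peaks assigned to each of the 41 genes (rows, separated into functional groups by white lines) in each of the 13 libraries (columns; the number after each name is the replicate). ITGB2 had the most peaks, with 13 and 10 for CTBP2 in untreated cells and 5 and 7 with dox, while MRC1 had 0 peaks in the 5 libraries of other cells and 5 to 9 in the inducible cells.

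The strongest CTBP2 sites of the set lay at genes of several roles. Sites were ordered by the mean, over both untreated libraries, of the percentile of their fold enrichment in the list (100 is the strongest peak). The 10 genes with the highest site were FCN1, ITGB2, MPO, S100A8, VNN1, MRC1, MS4A7, CYBB, ITGAM and CST3. The lowest of these, CST3, had a mean percentile of 94.6, and the next gene, NCF4, had 94.4. Of the 10 sites, 4 lay within 1 kb of a TSS and 6 lay farther away. The reference sequence of hg19 (plus strand, 101 bases around the CTBP2 summit of untreated replicate 1) is shown for 7 of them, to let the DNA under the strongest binding be read, and the windows of MS4A7 and ITGAM, which touch an untranslated exon, were left out. Capitals mark matches, on either strand, to AGATAA (the GATA type), ACAAGATA (the first zinc finger domain of EVI1), GGAAGT (the ETS type), TGTGGT (RUNX), TTGCNNAA (C/EBP) or TGANTCA (AP-1).
FCN1 (chr9:137821136-137821236): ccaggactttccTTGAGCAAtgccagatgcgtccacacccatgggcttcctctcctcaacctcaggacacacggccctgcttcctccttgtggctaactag
ITGB2 (chr21:46351166-46351266): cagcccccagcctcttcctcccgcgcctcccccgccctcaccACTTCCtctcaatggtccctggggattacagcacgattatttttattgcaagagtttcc
MPO (chr17:56359155-56359255): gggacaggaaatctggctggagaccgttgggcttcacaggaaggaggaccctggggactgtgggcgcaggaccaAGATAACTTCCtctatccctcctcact
S100A8 (chr1:153359114-153359214): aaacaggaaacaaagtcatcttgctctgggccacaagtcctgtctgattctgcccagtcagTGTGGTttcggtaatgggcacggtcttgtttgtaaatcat
MRC1 (chr10:18140691-18140791): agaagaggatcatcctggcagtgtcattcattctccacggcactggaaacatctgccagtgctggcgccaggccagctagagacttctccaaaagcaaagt
CYBB (chrX:37656267-37656367): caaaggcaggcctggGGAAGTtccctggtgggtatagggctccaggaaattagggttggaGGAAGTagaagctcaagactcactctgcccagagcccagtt
CST3 (chr20:23636629-23636729): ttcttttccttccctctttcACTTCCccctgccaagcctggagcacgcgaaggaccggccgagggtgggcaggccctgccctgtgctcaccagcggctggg

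The ETS-type letters were found in the windows of ITGB2, MPO, CYBB and CST3, a RUNX match at S100A8 and a C/EBP match at FCN1. The window of MRC1 held none of the letters searched. At MPO, the GATA-type match and the ETS-type match overlapped by 1 base. Over all 82 CTBP2 sites of the set, windows of the same length held GGAAGT at 18 sites (22.0%), against 16.1% of the 33510 CTBP2 sites at all other genes. TGTGGT was found at 9 of 82 sites (9.46% elsewhere), AGATAA at 3 sites (3.66% against 2.62%), TGANTCA at 2 sites (2.44% against 3.18%) and TTGCNNAA at 1 site (1.22% against 2.73%). ACAAGATA, which holds most of AGATAA, was found at 0 of 82 sites, against 0.122% at other genes. These are counts of letters in a window, and no test was made of them.

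FCN1 encodes ficolin-1, a pattern recognition lectin of monocytes, and its strongest site lay in intergenic sequence at -11477 bp from the TSS (chr9:137820707-137821763). CTBP2 there had percentiles of 99.6 and 99.3 in untreated cells and of 88.1 and 86.0 with dox. EVI1 had percentiles of 98.7 and 99.0 in untreated cells and of 96.4 and 93.1 with dox. The site was thus among the strongest 1% of CTBP2 peaks in untreated inducible cells, and both dox values were lower. In the other cells its CTBP2 percentile was 9.65 in unmodified MUTZ3 and 53.3 in MOLM1. It was 22.7 and 91.3 in 4xPLASS replicates 1 and 2. MPO encodes myeloperoxidase, the main enzyme of azurophil granules, and its only site lay at -835 bp (chr17:56358764-56359497). CTBP2 there had percentiles of 98.9 and 97.1 in untreated cells and of 73.3 and 90.8 with dox. EVI1 remained at percentiles of 98.9 and 99.3 with dox, beside 99.4 and 99.4 in untreated cells, and was the strongest EVI1 peak of the set in both untreated libraries.

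At ITGB2, the β2 chain shared by the leukocyte integrins, the strongest site lay in an intron 199 bp from a TSS (chr21:46349926-46353483). Its CTBP2 percentiles were 99.2 and 98.2 without dox and 81.6 and 74.5 with it. S100A8 encodes a subunit of calprotectin, and the site 4382 bp downstream of its TSS (chr1:153358705-153359434) had a mean CTBP2 percentile of 96.2 in untreated cells and percentiles of 67.6 and 79.4 with dox. CST3, encoding the protease inhibitor cystatin C, had a site at -17639 bp (chr20:23636145-23637352) with percentiles of 95.9 and 93.3 in untreated cells and of 86.3 and 64.1 with dox. At each of these genes both dox values lay below both untreated values.

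At other strong sites the dox percentiles were not both the lower ones. At ITGAM, which encodes the α chain CD11b, the site at the TSS (chr16:31270844-31272191) had CTBP2 percentiles of 93.4 and 96.6 in untreated cells and of 98.5 and 98.1 with dox. At VNN1, encoding the pantetheinase vanin-1, its strongest site had 92.9 and 99.0 without dox and 95.4 and 94.6 with it. At CYBB, which encodes the catalytic subunit of the phagocyte oxidase, the intronic site (chrX:37656018-37656515) had 91.3 and 99.2 without dox and 87.6 and 95.8 with it. At VNN1 and CYBB the dox percentiles overlapped the untreated ones, and at ITGAM both dox percentiles were the higher. Fold enrichment of CTBP2 was lower in both dox libraries at all of these sites. It was 16.4 and 17.0 without dox and 13.8 and 15.1 with it at ITGAM. At VNN1 it was 16.0 and 23.9 and then 10.2 and 11.4, and at CYBB 14.8 and 25.5 and then 7.71 and 12.2. MS4A7, a monocyte membrane protein gene, had a site at its TSS (chr11:60145817-60146277) with percentiles of 93.8 and 97.2 in untreated cells and of 93.3 and 86.5 with dox, both again lower. The intronic site of MRC1 (chr10:18140571-18140904) had 92.5 and 99.3 without dox and 85.3 and 69.1 with dox. All 10 strongest sites were called for both proteins in every inducible library. The sites were chosen for high percentiles in the untreated libraries, so a lower value with dox can follow from the choice alone and is a description only. A percentile refers to its own list, and the dox lists of CTBP2 were shorter.

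**Figure D2:**
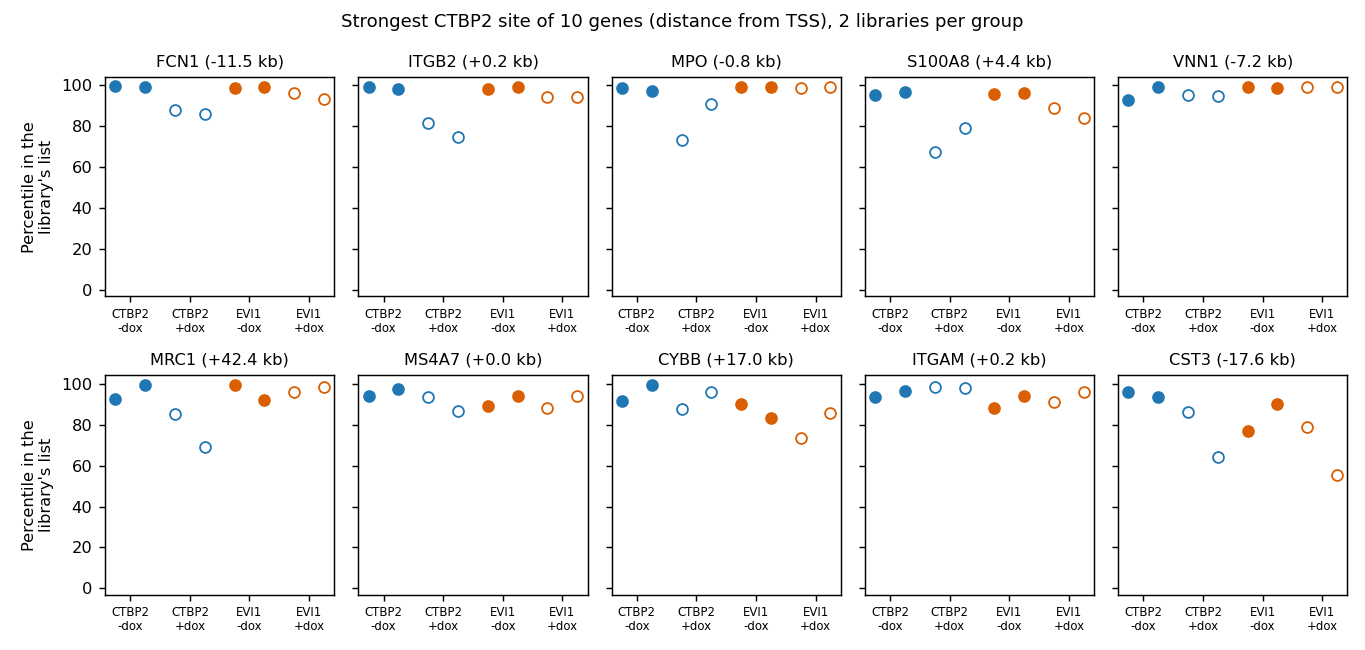
Percentile of the strongest CTBP2 site of 10 genes in the lists of CTBP2 (blue) and EVI1 (orange), with filled points for untreated and open points for dox, 2 libraries per group. At FCN1, ITGB2, MPO, S100A8, MRC1, MS4A7 and CST3 both CTBP2 dox points lay below both untreated points, while at ITGAM they lay above.

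Promoter sites were about as common among the CTBP2 sites of these genes as elsewhere. The midpoint lay within 1 kb of a TSS for 26 of 82 sites (31.7%), against 34.8% of sites at all other genes. Such a site was found at 21 of 41 genes, a share of 51.2% beside 51.3% of all protein-coding genes. These genes were CAMP, CD33, CD68, CST3, CTSG, CXCR1, CXCR2, CYBA, ITGAM, ITGB2, LYZ, MPO, MRC1, MS4A7, NCF4, S100A8, S100A9, TLR2, VCAN, VNN1 and VNN2. EVI1 sites within 1 kb were found at 23 genes (56.1%, beside 54.3% of all genes), among them LCN2, MMP9, ITGAX and PRTN3, where no CTBP2 site lay within that distance. At LCN2 this EVI1 site overlapped a CTBP2 site whose midpoint lay beyond 1 kb. By the summit in untreated replicate 1, 40 CTBP2 sites were intergenic, 35 lay in introns, 5 in coding exons and 2 in 5′ untranslated exons. With a limit of 500 bp the promoter share was 28.0%, and with 2 kb it was 35.4%.

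**Figure D3:**
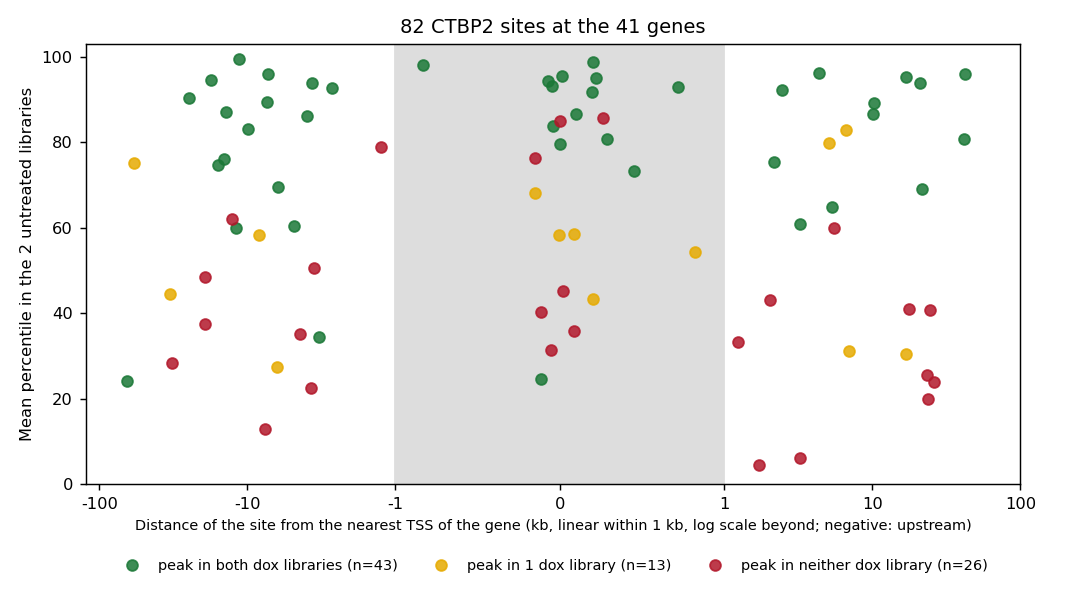
Mean percentile of the 82 CTBP2 sites in the 2 untreated libraries against the distance of the site from the nearest TSS of its gene, coloured by the number of dox libraries with a peak. The grey band marks 1 kb on either side of the TSS, which holds 26 sites, and the 26 sites with no dox peak lie mostly in the lower part on both sides of it.

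CTBP2 and EVI1 sites coincided at these genes about as often as elsewhere. An EVI1 site overlapped 66 of 82 CTBP2 sites (80.5%), against 82.8% at all other genes. With the EVI1 peaks of unmodified cells the share was 47.6%, against 39.6%. The 16 CTBP2 sites with no EVI1 site were weaker, with median percentiles of 30.4 and 44.2 in untreated libraries 1 and 2, against 76.8 and 81.5 for the 66 others. In unmodified MUTZ3 cells, EVI1 peaks were found at 21 of 41 genes and CTBP2 peaks at 21 of 41 genes (51.2% for each), beside 45.6% and 36.4% of all protein-coding genes, and 19 genes (46.3%, beside 29.5%) had both. Of 45 EVI1 peaks in that experiment 66.7% overlapped a CTBP2 peak, against 42.3% at all other genes. Of 46 CTBP2 peaks 65.2% overlapped an EVI1 peak, against 54.5% elsewhere. The unmodified cells had 1 library per protein and different crosslinks, so no replicate error can be given there.

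With dox, the number of CTBP2 peaks at the 41 genes was lower. There were 130 and 105 peaks without dox and 57 and 67 with it (117.5 ± 17.7 and 62.0 ± 7.07, mean ± SD, n = 2 each). The groups did not overlap, and the log2 ratio of the means was -0.92 (exact permutation test, two-sided, p = 0.33, the smallest p that 2 libraries against 2 can give). At all other genes the log2 ratio was -1.31. The dox lists were shorter as a whole, and with all 4 lists reduced to the same number of strongest peaks the log2 ratio at the 41 genes was 0.10 (p = 0.67 by the same exact permutation test). As a share of the list, peaks at the 41 genes made up 0.212% and 0.187% without dox and 0.234% and 0.284% with it, a log2 ratio of 0.37 (exact permutation test, p = 0.33). The lists hold no read counts, so depth is unknown, and a shorter list from less binding and one from fewer reads cannot be told apart.

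EVI1 peaks at these genes differed less in number. There were 102 and 118 without dox and 98 and 98 with it (110.0 ± 11.3 and 98.0 ± 0.0), a log2 ratio of -0.17 (exact permutation test, two-sided, p = 0.33). At all other genes it was -0.28. With lists of equal size the log2 ratio at the 41 genes was 0.04, and as a share of the list it was 0.10.

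**Figure D4:**
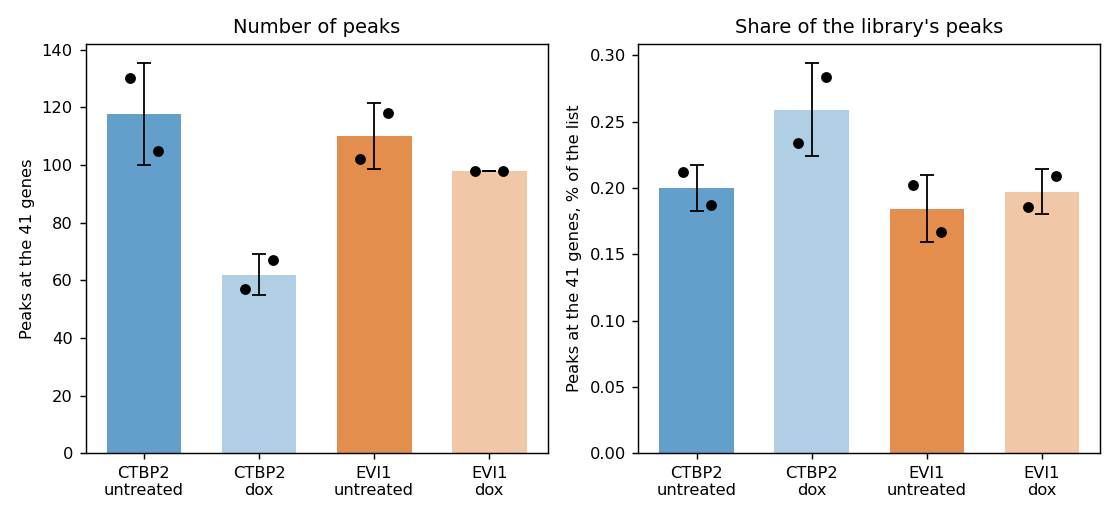
Peaks at the 41 genes in the inducible cells, as a number (left) and as a percentage of the library's list (right). Bars show the mean of 2 libraries, points the libraries and error bars the SD; CTBP2 with dox had 57 and 67 peaks against 130 and 105 untreated, but a higher percentage of its list.

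Gene by gene, both dox libraries had fewer CTBP2 peaks than both untreated libraries at 16 of the 35 genes with a CTBP2 peak in any of the 4, a share of 45.7% beside 49.4% of all such genes. These were CAMP, CD14, CD68, CST3, CXCR1, CXCR2, FCN1, ITGAM, ITGB2, LCN2, MMP9, MRC1, S100A9, TLR2, VCAN and VNN1. More peaks in both dox libraries were found at 0 of 35 genes, beside 0.438% of all genes. For EVI1, both dox libraries had fewer peaks at 2 of 38 genes (CXCR1 and NCF4; 11% of all genes) and more at 3 of 38 genes (CD14, FPR2 and LTF; 3.39% of all genes).

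Of the 82 CTBP2 sites, 58.5% overlapped a peak of dox replicate 1 and 62.2% one of dox replicate 2 (60.4% ± 2.59, SD over 2 libraries). At all other genes 50.9% and 46.2% of the sites called in both untreated libraries did so. With sites called in either untreated library the mean at the 41 genes was 38.7%, with no value for other genes beside it. At the 41 genes, 43 sites (52.4%) were called in both dox libraries, 13 in 1 of them and 26 (31.7%) in neither. The 43 sites had a median CTBP2 fold enrichment of 13.4 and 12.5 in untreated libraries and of 7.27 and 7.03 with dox. Of all CTBP2 sites within 100 kb of a protein-coding TSS 38.3% were called in both and 41.2% in neither. Sites of the set were also stronger in one of the untreated libraries, with median percentiles of 69.6 in replicate 1 (69.2 at all other genes) and 76.2 in replicate 2 (59.6 at all other genes).

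Stronger sites were called again more often, although not evenly so. When all CTBP2 sites were divided by mean percentile into 5 groups of equal size, 27 of the 82 sites fell into the strongest group, and 92.6% of these were called in each dox library, against 91.2% on average at all other genes. In the next group, 76.7% of 15 sites were called on average (63.9% elsewhere), and in the group after it 62.5% of 12 sites (42.5% elsewhere). In the fourth group it was 10.0% of 10 sites (28.3% elsewhere), and in the weakest 25.0% of 18 sites (16.9% elsewhere). The set lay above the other genes in 4 of the 5 groups, with few sites in each, but without MRC1 and FCGR1A the value of the weakest group was 15.6% of 16 sites, below that elsewhere.

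**Figure D5:**
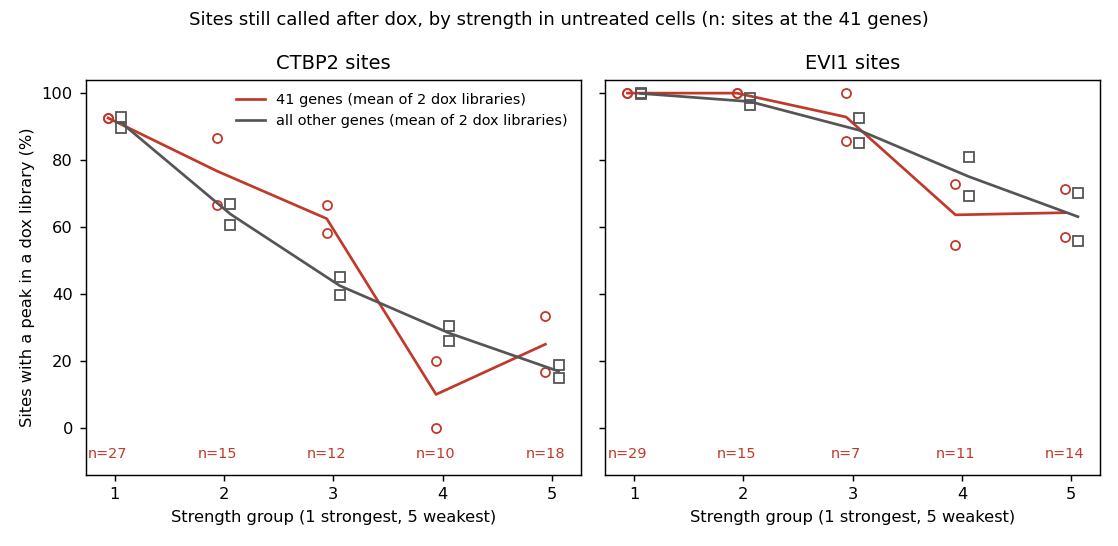
Share of sites from untreated cells that had a peak in a dox library, by strength group (1 strongest, 5 weakest), for CTBP2 (left) and EVI1 (right). Points are the 2 dox libraries and lines their mean; among CTBP2 sites of the 41 genes the share was 92.6% in group 1 and 25.0% in group 5, and among EVI1 sites 100.0% and 64.3%.

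CTBP2 sites within 1 kb of a TSS were called with dox in 61.5% and 65.4% of 26 cases, and sites farther away in 57.1% and 60.7% of 56 cases. At all other genes the means were 56.2% and 44.4%. Without MRC1 and FCGR1A, whose sites lie largely in repeated sequence, the means in the set were 66.0% of 25 and 54.1% of 49 sites. Sites with an EVI1 site were called in 66.7% and 69.7% of 66 cases, and those without in 25.0% and 31.2% of 16 cases. At all other genes the shares differed in the same direction, with 57.7% and 52.0% against 17.8% and 18.4%. The sites without an EVI1 site were the weaker ones.

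EVI1 sites were called again with dox at 89.5% and 85.5% of 76 sites (87.5% ± 2.79), against 88.5% and 81.3% at all other genes. Both dox libraries held 62 of them (81.6%, beside 78.6% of EVI1 sites at all genes), and 5 (6.58%) were in neither, beside 8.81% of EVI1 sites at all genes. The 5 lay at CXCR1, ELANE, S100A9, MMP9 and ITGAX. Of the 26 CTBP2 sites called in neither dox library, 15 (57.7%) had an EVI1 site in untreated cells, against 69.0% elsewhere. An EVI1 peak was still called with dox at 12 of these 15 in replicate 1 and at 11 in replicate 2 (80.0% and 73.3%), against 85.6% and 74.8% of such sites at all other genes.

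At 4 genes every CTBP2 site was without a peak in both dox libraries, namely CAMP, CD68, LCN2 and S100A9. This is 13.3% of the 30 genes with a site, beside 21.1% of all genes with a CTBP2 site. Each of the 4 had a single site. That of S100A9, at -153 bp from the TSS, had percentiles of 76.1 and 76.5, and those of CAMP (50.9 and 29.4), CD68 (56.0 and 6.6) and LCN2 (a mean of 33.3) were lower. The EVI1 sites of CAMP, CD68 and LCN2, which overlapped the CTBP2 sites, had a peak in both dox libraries. For EVI1, 3 genes (CXCR1, ELANE and S100A9) had no site called again, 10.0% of 30, beside 2.44% of all genes with an EVI1 site. Each of these 3 had only 1 EVI1 site.

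Among azurophil granule genes, which encode the granule proteins stored first in promyelocytes, CTBP2 sites were found at MPO, CTSG and LYZ, 1 each and all within 1 kb of the TSS. CTSG, encoding cathepsin G, had percentiles of 6.8 and 42.6 in untreated cells and peaks with dox in both libraries, and LYZ, encoding lysozyme, had 40.1 and 76.3 and a dox peak in replicate 2 only. The neighbouring granule protein genes AZU1, PRTN3 and ELANE on chromosome 19 behaved differently from library to library. CTBP2 had 8 peaks at these 3 genes in untreated replicate 1 (highest percentile 74.8), 0 in untreated replicate 2 and 0 in both dox libraries. EVI1 had 2 and 7 peaks there in untreated cells and 3 and 0 with dox. None of the 5 libraries of other cells had a peak at these 3 genes, so the CTBP2 calls there were not repeated between replicates. EVI1 sites called in both untreated libraries were found at ELANE, with no dox peak, and at PRTN3, with a peak in dox replicate 1.

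Among specific and gelatinase granule genes, MMP9, encoding gelatinase B, had 7 CTBP2 sites, none of them within 1 kb of the TSS. It had 11 and 7 CTBP2 peaks without dox and 3 and 4 with it, while EVI1 had 8 and 9 and then 8 and 5. Of its 7 sites, 2 were called in both dox libraries and 3 in neither. LTF, encoding lactoferrin, had 3 sites, of which the one at -3933 bp from the TSS was called in both dox libraries. The single sites of CAMP (cathelicidin) and LCN2 (lipocalin-2) are given above. MMP8 (neutrophil collagenase) and CEACAM8 (CD66b) had no site of either protein, with CTBP2 peaks only for MMP8, 1 in untreated replicate 1 and 1 in MOLM1. EVI1 had 1 peak at MMP8 in untreated replicate 1 and in each dox library, and 2 peaks at CEACAM8 in untreated replicate 2 only.

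The β2 integrin genes held 16 of the 82 CTBP2 sites. At ITGB2, both dox libraries called 5 of 8 sites and neither called 3, and EVI1 had 10 and 10 peaks without dox and 10 and 11 with it. At ITGAM, 3 of 6 sites were called in both and 3 in neither, with 10 and 8 CTBP2 peaks without dox and 3 and 3 with it. At ITGAX, encoding CD11c, 1 of 2 sites was called in both and the other in dox replicate 2 only. All 3 genes had peaks in each of the 13 lists.

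Among the oxidase genes, both dox libraries called 7 of 10 CTBP2 sites and neither called 1. CYBB had 5 and 7 CTBP2 peaks without dox and 4 and 6 with it, and NCF4, encoding a cytosolic subunit, had 6 and 5 and then 4 and 5, so the groups overlapped for both genes. A CYBB site at -24906 bp from the TSS had CTBP2 percentiles of 81.3 and 99.3 in untreated cells, 98.7 and 97.2 with dox, 99.3 in unmodified cells and 98.5 in MOLM1. Among the CTBP2 lists, only untreated replicate 1 of the inducible cells had it below the strongest 5% of its list. CYBA, encoding the membrane partner p22phox, had 1 site, with a peak in dox replicate 1 only. Among S100 genes, both S100A8 sites were called in dox replicate 1 and 1 of them in replicate 2, while S100A12 had no CTBP2 or EVI1 peak outside MOLM1, where it had 2.

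Receptor genes split into those with sites and those nearly without peaks. CD14, the lipopolysaccharide coreceptor, had 4 CTBP2 sites, of which 2 had a peak in both dox libraries and 2 had none, and its strongest site, 20824 bp downstream of the TSS, had a percentile of 99.8 in unmodified cells. TLR2 also had 4 sites, 3 of them in neither dox library and 1 in dox replicate 2 only, while all 3 of its EVI1 sites were called in both. CXCR1 and CXCR2, the neighbouring receptors for interleukin-8, had 3 CTBP2 sites each. Of the 6 sites, 1 (at CXCR2) was called in both dox libraries and 3 in neither. The formyl peptide receptor genes FPR1 and FPR2 and the lipopolysaccharide receptor TLR4 had 0 CTBP2 peaks in every MUTZ3 library and 4, 3 and 4 peaks in MOLM1. TLR8 had a single peak in all lists, for EVI1 in dox replicate 2.

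Among monocyte surface and matrix genes, CD33, a sialic acid binding lectin, had 2 CTBP2 sites and both were called in both dox libraries. VCAN, encoding versican, had 2, of which 1 was called in both and 1 in dox replicate 2 only. The single site of MS4A7 was called in both. CD163, the haemoglobin scavenger receptor, had no site, with 0 and 1 CTBP2 peaks without dox and 1 and 1 with it. CTSS (cathepsin S) had 1 site and CST3 had 2, and all 3 were called in both dox libraries. Of the 5 sites at the vanin genes VNN1 and VNN2, 4 were called in both.

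MRC1, encoding the macrophage mannose receptor, differed between experiments. It had 8 and 7 CTBP2 peaks and 6 and 9 EVI1 peaks in untreated inducible cells, and 0 peaks in each of the 5 other libraries. In hg19, 95.9% of the 32-base stretches sampled from its 6 CTBP2 sites occur more than once in the genome, and at FCGR1A, an Fc receptor gene with close paralogues, 80.7% do. At the 28 other genes with CTBP2 sites the median was 0.0459% and the highest 31.5% (CD14), with the sites of a gene pooled. Some single sites were higher, with 77.7% at an MMP9 site, 60.2% at a VNN1 site and 49.6% at the strongest VNN1 site. The labels name single-end and paired-end sequencing without saying which library had which, and the part of read placement in the MRC1 peaks was not tested. Without MRC1 and FCGR1A, 58.1% of 74 CTBP2 sites were called with dox, 33.8% lay within 1 kb of a TSS and 71.8% of 39 genes had a CTBP2 site.

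Across the other experiments, CTBP2 sites of the set were found somewhat more often than those at other genes. Of the 82 sites, 43.9% had a CTBP2 peak in unmodified MUTZ3 cells (31.1% at all other genes), 67.1% in MOLM1 (63.1%), and 30.5% and 63.4% in 4xPLASS replicates 1 and 2 (13.6% and 52.4%). In MOLM1 34 of 41 genes had a CTBP2 peak (82.9%, beside 72.1% of all genes), and 16 genes (39.0%, beside 19.2%) had one in both 4xPLASS libraries. Those 16 were CD14, CD33, CST3, CTSS, CYBB, FCN1, ITGAM, ITGAX, ITGB2, LTF, MMP9, MPO, NCF4, S100A8, VCAN and VNN1. The 4xPLASS lists differed in length, with 6688 and 31310 peaks, and no test was made of these shares. The same shares of genes in other lineage lists are given in the next paragraph.

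The number of sites was also set against the size of the loci. The set had a median of 1 CTBP2 site per gene, as did all other genes, and 29.3% of the set had 3 or more, against 21.5%. The stretch of sequence nearest to a gene within 100 kb had a median of 43.0 kb in the set and of 59.0 kb elsewhere. Summed over all loci, there were 3.65 CTBP2 sites per 100 kb of such sequence in the set and 1.90 elsewhere. The density was 4.31 at further neutrophil and monocyte genes, 3.33 at erythroid and megakaryocyte genes and 4.19 at lymphoid genes, each also above 1.90. Of the other lists, 21 of 30 further neutrophil and monocyte genes (70.0%), 15 of 24 erythroid and megakaryocyte genes (62.5%) and 23 of 29 lymphoid genes (79.3%) had a CTBP2 site. In the same order, 56.7%, 29.2% and 44.8% of the genes in these lists had 3 or more CTBP2 sites, beside 29.3% of the set. The share of their CTBP2 sites called with dox was 59.3% on average for the further neutrophil and monocyte genes, 47.8% for the erythroid and megakaryocyte genes and 46.9% for the lymphoid genes, beside 60.4% for the set. These lists were small and were not tested against each other.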

How the data were processed

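MACS2 peak lists of 13 ChIP-seq libraries from MUTZ3 and MOLM1 cells were analysed. Per the labels, the authors aligned reads to hg19 with Bowtie 1.1.1 and called the peaks of every library separately (MACS2 2.1.2), against a matched input according to the methods. The deposited fold enrichment (a ratio over the local background), −log10 p and −log10 q are the values of MACS2 at the summit, and the deposited score is a display value that was not used. Depth per library is unknown, so peaks were compared as called or not called and by percentile of fold enrichment within a list.

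Peaks on chromosomes 1 to 22, X and Y were assigned by summit to the nearest TSS of any protein-coding transcript (GENCODE 44 mapped to GRCh37) within 100 kb. Peaks that both untreated libraries shared were merged into sites, assigned by midpoint, and a site was kept when it overlapped a dox peak by at least 1 bp. Peak numbers were compared by an exact permutation test. Genes described one by one were the 10 with the strongest CTBP2 site, those with a CTBP2 site within 1 kb of a TSS, those with every CTBP2 site lost, and any with no peak. Others are named to account for the whole set. The members and lists were chosen with earlier results of these data known. No peak ended past a chromosome of the reference. The procedure was tested on simulated lists, and overlap counts were checked against bedtools 2.31.1. Python 3.11.15, pandas 2.3.3, scipy 1.17.1 and pysam 0.24.0 were used. The sequence of 1 of the strongest sites is not reported here.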

Additional observations from a re-analysis of the deposited data

How the results depend on the processing

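The 8 main values were recomputed 77 times, and 46 of the recomputed values stayed within the spread between libraries or on the same side. Leaving out MRC1 and FCGR1A and crossing the replicate numbers were chosen after seeing the data. The log2 ratio of peak numbers, dox against untreated, turned positive with lists of equal size (0.10 for CTBP2 and 0.039 for EVI1) and as a percentage of the list (0.37 and 0.10), so that its direction depends on the length of the lists. With equal lists, the sites were defined anew from the strongest untreated peaks only, so they were fewer and stronger than those above. Of these, 84.1% of CTBP2 sites and 90.8% of EVI1 sites were called with dox, with no value for other genes beside them.

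With a minimum −log10 q of 5, 65.9% of the genes had a CTBP2 site and 65.9% an EVI1 site, 33.8% of CTBP2 sites were within 1 kb of a TSS and 87.7% had an EVI1 site. With a minimum fold enrichment of 5, these values were 58.5%, 61.0%, 36.4% and 85.5%, and 63.6% of CTBP2 sites and 83.9% of EVI1 sites were called with dox. Taking sites from either untreated library gave 85.4%, 82.9%, 26.7% and 74.0%, with 38.7% and 58.2% called with dox. With the start of the gene record as TSS, 63.1% of CTBP2 sites were called with dox and 25% were within 1 kb. The promoter share was 35.4% at 2 kb, 28.0% at 500 bp and 33.8% without MRC1 and FCGR1A. EVI1 peaks of unmodified cells overlapped 47.6% of CTBP2 sites. Without 1 untreated replicate, 75.6% to 82.9% of the genes had a CTBP2 site and 78.0% to 80.5% an EVI1 site.

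The replicate block gave log2 ratios of -0.92 for CTBP2 and -0.16 for EVI1. Crossing the numbers for EVI1 also gave -0.16, which was fixed in advance, since a mean of log2 ratios does not depend on the pairing. The crossed value was counted among those that stayed, but it tests nothing. Deviations of same-numbered libraries correlated at 0.15 for CTBP2 and -0.41 for EVI1, over 2 pairs that share only a number. Depth is unknown, and 2 libraries against 2 cannot give an exact p below 0.33.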
